A study of Mus musculus with 18 samples.

Results

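The genes described are the Gq-class G protein alpha subunits Gnaq and Gna11 and 6 receptors that signal through them, Agtr1a, Ednra, Ednrb, Adra1a, Adra1b and F2r. They were chosen by name, as upstream activators of phospholipase Cβ1, and all 8 were found among the 23457 genes of the count table. RNA was sequenced from the hearts of 18 male C57BL/6 mice at 17 weeks of age, 6 for each of 3 adeno-associated virus vectors of serotype 6. The blank hearts had received rAAV6-blank, a vector with no protein product, and the others rAAV6-PLCβ1a or rAAV6-PLCβ1b, which carry splice variants of Plcb1. PLCβ1a is the variant the study treats as functionally inactive in heart, and so served as a further control. The labels name both ventricles as the tissue, whereas the methods name the left ventricle. No mouse number is shared between groups, so nothing pairs the hearts. The comparisons ask whether raising an effector of Gq signalling is accompanied by a change in the messages of its activators.

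Gq-coupled receptors pass a hormone or protease signal to a heterotrimeric G protein, whose alpha subunit then activates phospholipase Cβ. The enzyme cleaves a membrane lipid into inositol trisphosphate and diacylglycerol, which raise calcium and activate protein kinase C. In heart muscle this pathway is known for its part in growth and contractility, and in the vessel wall for contraction.

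Counts totalled 13246339 to 24155465 per heart, of which 3908354 to 7591558 fell on nuclear genes. The members were measured on 90 to 539 counts per heart. All 8 passed the filter on low counts, which 12281 genes passed, and calls were made at a false discovery rate (FDR) below 0.1, from edgeR's quasi-likelihood test with Benjamini-Hochberg adjustment over those genes. FPKM, fragment counts scaled to transcript length and to sequencing depth, are deposited values and allow levels to be compared between genes.

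Plcb1, the gene carried by both PLC vectors, was measured first as a check of the labels. In FPKM, the blank group spanned 0.806 to 1.14 around a median of 0.986, the PLCβ1a group 3.18 to 5.28 around 3.69, and the PLCβ1b group 4.16 to 13.2 around 7.82. All hearts of both PLC groups lay above every blank heart, and 5 of 6 PLCβ1b hearts lay above every PLCβ1a heart. The log2 fold change between PLCβ1b and PLCβ1a was 1.09 (standard error 0.17), and its call depended on an option of the test. Its FDR in edgeR was 0.00918 with the default prior and 0.801 with the robust prior.

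No member was called in any of the 3 comparisons. Between PLCβ1b and blank hearts 0 of 8 members were called, beside 0.0977% of all genes tested. Between PLCβ1a and blank hearts it was 0 of 8, beside 0.0814%, and between PLCβ1b and PLCβ1a hearts 0 of 8, beside 0.00814%. With 8 members and background shares this small, counts of 0 lie near the background. In edgeR 0 of 8 members had an unadjusted p under 0.05 in each comparison, beside 912, 1082 and 560 of all genes tested, and DESeq2 and limma also called 0. With 1 heart left out the shares of all genes called ran from 0.0324% to 0.137% for PLCβ1b and from 0.0162% to 0.162% for PLCβ1a against blank, and 0 members were called. The first 2 comparisons share the blank hearts.

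The median log2 fold change of the members was -0.01 between PLCβ1b and blank hearts, where that of all genes was -0.00091. It was 0.03 between PLCβ1a and blank hearts, beside -0.0018 for all genes. Between PLCβ1b and PLCβ1a hearts it was -0.03, beside 0.00089. The 95% intervals show how large a change each comparison leaves possible. They were narrowest for the G proteins and widest for Agtr1a.

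**Figure D1:**
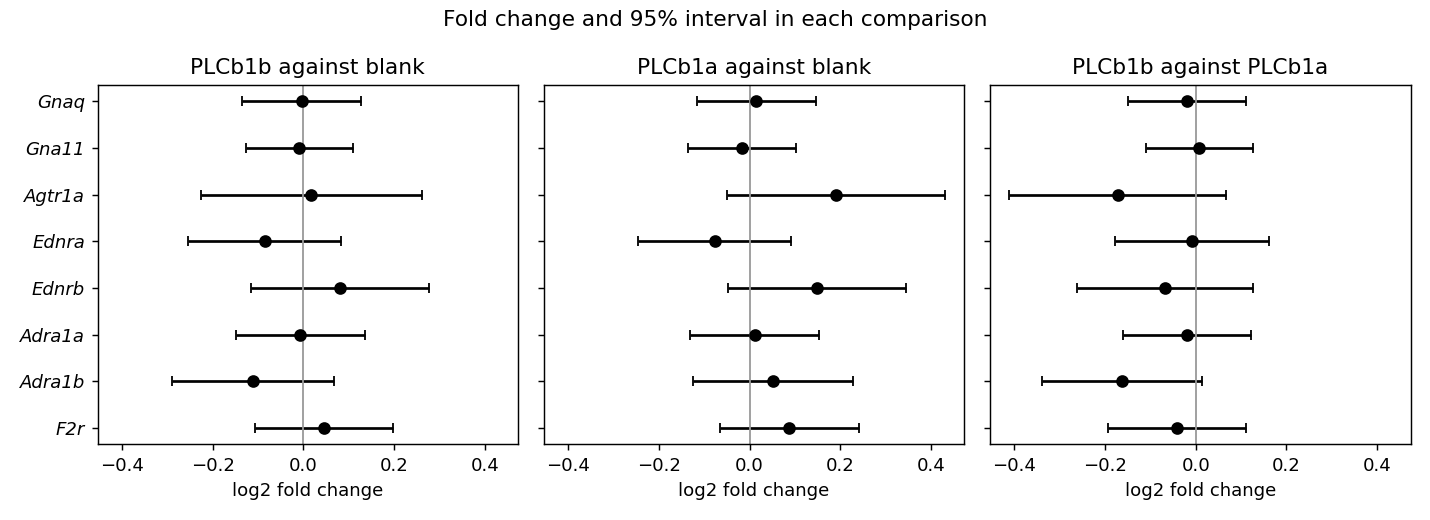
Log2 fold change of each gene (points) with its 95% interval from edgeR's model (bars), in the 3 comparisons of 6 hearts with 6. Every interval includes 0, and that of Agtr1a is the widest in each panel.

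Gnaq, on chromosome 19 of mm10 from 16132831 to 16387453, encodes the alpha subunit of Gq. By FPKM, the blank group spanned 2.76 to 3.25 around a median of 2.97, the PLCβ1a group 2.52 to 3.18 around 3.02, and the PLCβ1b group 2.74 to 3.12 around 3.02. The groups overlapped almost wholly. Set against blank hearts, PLCβ1b hearts had a log2 fold change of -0.0038 (95% interval -0.14 to 0.13) and PLCβ1a hearts one of 0.02 (-0.12 to 0.15). These intervals hold changes of no more than 1.11-fold upwards. With group means subtracted, Gnaq had an r of -0.60 with the log2 count on nuclear genes over the 18 hearts (permutation test, p = 0.0181, adjusted p = 0.145 over the 8 members) and a rho of -0.65 (p = 0.00753, adjusted p = 0.0602), so that rho passed at 0.1 and r did not. Without the 2 hearts farthest from the median depth r was -0.46, and the relation was looked at after seeing the data. The part of depth in the level of Gnaq was not tested.

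Gna11, on chromosome 10 from 81528732 to 81545046, encodes the closely related alpha subunit of G11. In FPKM units, the blank group spanned 5.81 to 7.10 around a median of 6.72, the PLCβ1a group 6.02 to 6.75 around 6.34, and the PLCβ1b group 5.90 to 6.89 around 6.53. Again the 3 groups overlapped, and the PLCβ1a group had the narrowest range. The log2 fold change was -0.01 for PLCβ1b (-0.13 to 0.11) and -0.02 for PLCβ1a (-0.14 to 0.10).

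Because the 2 G proteins are paralogs, reads of one could in principle be counted on the other. Their coding sequences in the GENCODE annotation of GRCm38 are of equal length, 1077 bases without the stop codon, and 867 bases (80.5%) are identical in place. The longest identical run is 38 bases. The last 90 coding bases are shown because they encode the end of the subunit that meets the receptor. The 10 bases that differ are in capitals.
Gnaq: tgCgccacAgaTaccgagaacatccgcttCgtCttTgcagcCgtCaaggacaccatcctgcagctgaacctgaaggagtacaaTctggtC
Gna11: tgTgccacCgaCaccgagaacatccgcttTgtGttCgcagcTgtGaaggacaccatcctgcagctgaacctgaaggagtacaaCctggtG

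Gnaq stood at less than the level of Gna11 in every heart. The ratio of their FPKM spanned 0.410 to 0.497 in the blank group around a median of 0.455, 0.394 to 0.506 in the PLCβ1a group around 0.475, and 0.417 to 0.515 in the PLCβ1b group around 0.456. The balance of the 2 subunits did not pass the test in any comparison (lowest adjusted p = 0.838 over 9 ratio tests, exact two-sided permutation test).

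Agtr1a, on chromosome 13 from 30336356 to 30382867, encodes the main angiotensin II receptor of the mouse heart and vessels. On the FPKM scale, the blank group spanned 3.45 to 8.24 around a median of 7.44, the PLCβ1a group 7.06 to 8.99 around 7.57, and the PLCβ1b group 5.66 to 8.05 around 6.97. Blank heart 30 was the lowest of all, and 3 of 6 PLCβ1b hearts lay below every PLCβ1a heart. The log2 fold change was 0.02 for PLCβ1b (95% interval -0.23 to 0.26) and 0.19 for PLCβ1a (-0.05 to 0.43), the FDR from edgeR being 0.986 and 0.671. Without blank heart 30 the estimate for PLCβ1b turned to -0.11 and that for PLCβ1a dropped to 0.07, so both rest in part on that heart. Over all genes compared, its library also stood apart from those of blank hearts 32, 33, 34 and 36. Chi-squared per degree of freedom, a measure of how far the counts of a pair of hearts differ, was 5.5 to 9.6 with blank hearts 32, 33, 34 and 36. It was 3.1 with blank heart 26, and 1.8 to 4.3 between the other blank hearts. Pairs of PLCβ1a hearts gave 2.1 to 7.1, and pairs of PLCβ1b hearts 2.8 to 6.9. Only the values of heart 30 with blank hearts 33, 34 and 36, 7.5 to 9.6, lay above all of these. Between PLCβ1b and PLCβ1a the log2 fold change of Agtr1a was -0.17 (-0.41 to 0.07), with an unadjusted p of 0.150 in edgeR. With only those 2 groups in the model edgeR's p was 0.0267 (FDR 0.993).

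Ednra, on chromosome 8 from 77663029 to 77724452, encodes the endothelin receptor best known from smooth muscle and cardiomyocytes. Measured in FPKM, the blank group spanned 3.11 to 4.11 around a median of 3.69, the PLCβ1a group 3.11 to 4.09 around 3.29, and the PLCβ1b group 3.05 to 3.69 around 3.42. The ranges overlapped, and the log2 fold change was -0.09 for PLCβ1b (-0.25 to 0.08) and -0.08 for PLCβ1a (-0.25 to 0.09). With 1 heart left out the first ran from -0.14 (blank heart 34) to -0.04 (blank heart 30) and the second from -0.14 (PLCβ1a heart 7) to -0.03 (blank heart 30).

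Ednrb, on chromosome 14 from 103814615 to 103844476, encodes the other endothelin receptor, which is known from endothelium. In FPKM, the blank group spanned 2.73 to 4.43 around a median of 3.81, the PLCβ1a group 3.48 to 5.17 around 4.10, and the PLCβ1b group 3.19 to 4.37 around 3.99. Of the PLCβ1a hearts 1 exceeded every blank heart. The log2 fold change was 0.08 for PLCβ1b (-0.12 to 0.28) and 0.15 for PLCβ1a (-0.05 to 0.35). With 1 heart left out the value for PLCβ1b ran from 0.03 (blank heart 32) to 0.14 (PLCβ1b heart 4), and that for PLCβ1a from 0.08 (PLCβ1a heart 7) to 0.20 (PLCβ1a heart 21).

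The ratio of Ednra to Ednrb spanned 0.781 to 1.26 in the blank group around a median of 0.995, 0.766 to 1.003 in the PLCβ1a group around 0.794, and 0.718 to 1.16 in the PLCβ1b group around 0.871. Of the 9 ratio tests, that between PLCβ1a and blank hearts had the lowest p, with a difference of -0.26 on the log2 scale (exact two-sided permutation test, p = 0.0693, adjusted p = 0.623). The ratio of the endothelin receptors therefore did not pass the test.

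Adra1a, on chromosome 14 from 66635251 to 66771168, and Adra1b, on chromosome 11 from 43774606 to 43836332, encode alpha-1 adrenergic receptors, which answer noradrenaline and adrenaline. For Adra1a, in FPKM, the blank group spanned 3.70 to 5.85 around a median of 4.95, the PLCβ1a group 4.27 to 5.42 around 4.53, and the PLCβ1b group 4.21 to 5.61 around 4.58. Its log2 fold change was -0.01 for PLCβ1b (-0.15 to 0.14) and 0.01 for PLCβ1a (-0.13 to 0.15). The ranges of the 3 groups overlapped.

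For Adra1b, in FPKM, the blank group spanned 2.58 to 4.01 around a median of 3.44, the PLCβ1a group 2.95 to 4.15 around 3.57, and the PLCβ1b group 2.59 to 3.58 around 3.23. Of the PLCβ1b hearts 1 lay below every PLCβ1a heart. Set against blank, PLCβ1b gave a log2 fold change of -0.11 (-0.29 to 0.07) and PLCβ1a one of 0.05 (-0.12 to 0.23). Leaving out 1 heart moved the first to between -0.16 (blank heart 26) and -0.07 (blank heart 33), and the second to between 0.0077 (blank heart 26) and 0.10 (blank heart 33). Both kept their sign, though not their size. Between PLCβ1b and PLCβ1a the log2 fold change was -0.16 (95% interval -0.34 to 0.01), with the lowest unadjusted p of any member in the edgeR model (0.0687), and with 1 heart left out it ran from -0.20 to -0.12. The ratio of Adra1a to Adra1b had a median of 1.41 for blank, 1.31 for PLCβ1a and 1.38 for PLCβ1b, and did not pass the test (lowest adjusted p = 0.692, exact permutation test).

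F2r, on chromosome 13 from 95601789 to 95618433, encodes a thrombin receptor that the protease activates by cleavage. By FPKM, the blank group spanned 5.40 to 7.44 around a median of 6.78, the PLCβ1a group 5.97 to 8.21 around 6.71, and the PLCβ1b group 5.54 to 7.13 around 6.76. The medians were nearly the same. The log2 fold change was 0.05 for PLCβ1b (-0.11 to 0.20) and 0.09 for PLCβ1a (-0.07 to 0.24). Omitting 1 heart gave 0.01 (blank heart 32) to 0.09 (blank heart 26) for PLCβ1b and 0.04 (PLCβ1a heart 7) to 0.13 (blank heart 26) for PLCβ1a.

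**Figure D2:**
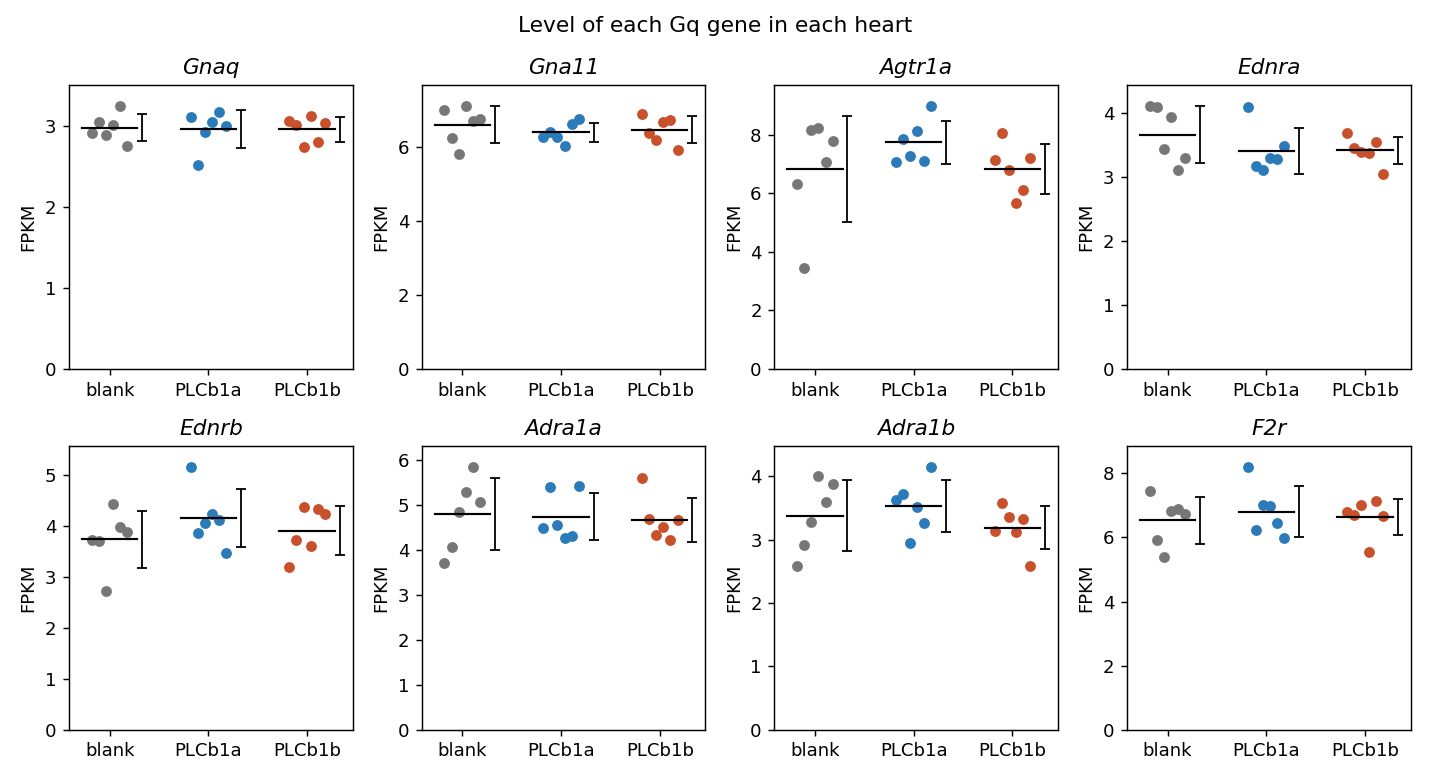
FPKM of each gene in each heart (points), with the group mean (line) and standard deviation (bar), for 6 hearts per vector. The groups overlap in all 8 panels, and blank heart 30 stands low for Agtr1a at 3.45 FPKM.

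By mean level over the 18 hearts the order was Agtr1a (7.14 ± 1.24 FPKM, SD), F2r (6.66 ± 0.677), Gna11 (6.48 ± 0.374), Adra1a (4.74 ± 0.586), Ednrb (3.94 ± 0.534), Ednra (3.50 ± 0.351), Adra1b (3.37 ± 0.443) and Gnaq (2.97 ± 0.176). The difference between neighbours exceeded the larger of their SDs at 2 steps, from Gna11 to Adra1a and from Adra1a to Ednrb. Agtr1a, F2r and Gna11 did not differ beyond their spread, and from Ednrb down to Ednra, Adra1b and Gnaq no step exceeded it. Gna11 was above Adra1a in 18 of 18 hearts, and Adra1a above Ednrb in 14 of 18. By counts per kilobase of exon the order over all hearts was the same, but the step from Adra1a to Ednrb was then within the spread.

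The order by FPKM was not the same in each group. The mean of Gna11 (6.60) was above that of F2r (6.54) in blank hearts, and that of Adra1b (3.54) above that of Ednra (3.41) in PLCβ1a hearts, both steps being within the spread. In PLCβ1a hearts the steps from Agtr1a to F2r (0.934 against an SD of 0.800), from Ednrb to Adra1b and from Ednra to Gnaq (0.443 against 0.360) also exceeded the larger SD, and in PLCβ1b hearts that from Ednrb to Ednra (0.499 against 0.480). By counts per kilobase of exon the step from Agtr1a to F2r in PLCβ1a hearts also exceeded the larger SD (2.12 against 1.99). No step from Adra1a down did in those hearts. In PLCβ1b hearts the step from Ednrb to Ednra was within the spread (0.468 against 1.36). On that scale Ednra was above Ednrb in blank hearts, above Adra1b in PLCβ1a hearts, and Gnaq above Adra1b in PLCβ1b hearts. Whether the order differs between groups was not tested.

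Ednrb and F2r rose and fell together from heart to heart. With each group's mean subtracted from log2 CPM (counts scaled to library size), Pearson's r over the 18 hearts was 0.74 (permutation test, p = 0.0013, adjusted p = 0.0364 over 28 pairs) and Spearman's rho 0.78 (p = 0.00072, adjusted p = 0.0202). Without the 2 hearts farthest from the median of Ednrb r was 0.77. It was 0.72 within blank, 0.92 within PLCβ1a and 0.58 within PLCβ1b hearts, and 0.73 without the 3 shallowest libraries, a check chosen after seeing the relation. No other pair of members passed at an adjusted p below 0.1.

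In whole tissue, fewer cells of a type and less RNA per cell cannot be told apart. The 6 endothelial markers summed to 79.9 to 103 FPKM per heart, Cdh5 being the most abundant and none at 0. Ednrb had an r of 0.47 with their mean (permutation test, p = 0.0708, adjusted p = 0.645 over 40 relations) and a rho of 0.46 (p = 0.0734, adjusted p = 0.679), and without the 2 hearts farthest from the median of Ednrb r was 0.40. F2r had an r of 0.22 (permutation test, p = 0.400, adjusted p = 0.696) and a rho of 0.31 (p = 0.232, adjusted p = 0.679), with r at 0.02 without the 2 hearts farthest from the median of F2r. On log2(FPKM + 0.1) the r of F2r was 0.37. The r of F2r with the mural cell markers was larger, 0.40 (permutation test, p = 0.150, adjusted p = 0.696; rho = 0.41, p = 0.114, adjusted p = 0.679), and 0.06 without such hearts. On log2(FPKM + 0.1) that r was 0.51 (permutation test, p = 0.0533, adjusted p = 0.629; rho = 0.52, p = 0.0412, adjusted p = 0.475), and 0.67 without such hearts, so what leaving them out does depends on the scale. Of the marker lists, Ednrb had its largest r in size with the fibroblast markers, -0.48 (permutation test, p = 0.0563, adjusted p = 0.645, rho = -0.39). That r was -0.19 without the 2 hearts farthest from the median of Ednrb, and -0.21 on log2(FPKM + 0.1). The part of endothelial cells in the relation of the 2 receptors was not tested.

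**Figure D3:**
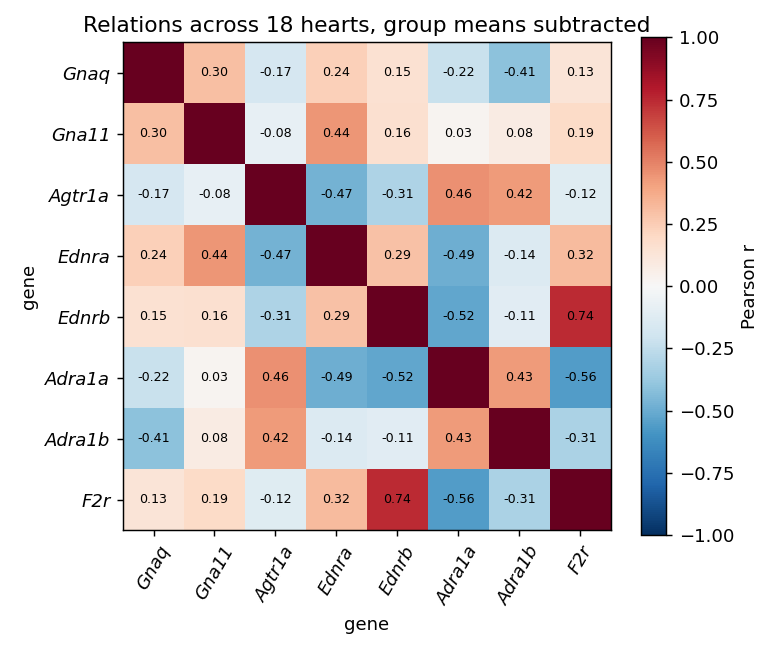
Pearson's r between each pair of genes over 18 hearts, from log2 CPM with group means subtracted; red is positive and blue negative. Ednrb with F2r, at 0.74, is the 1 pair that passed the test.

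None of the 40 relations of the members with the mean of the cardiomyocyte, endothelial, mural cell, fibroblast or leukocyte markers passed the test. The lowest p was that of Agtr1a with the endothelial markers (r = -0.52, permutation test, p = 0.0407, adjusted p = 0.645; rho = -0.37, p = 0.161, adjusted p = 0.679), and without the 2 hearts farthest from the median of Agtr1a r was -0.19. That relation rests on those hearts, and on log2(FPKM + 0.1) its r was -0.08. On that scale the strongest was Adra1a with the fibroblast markers (r = 0.65, permutation test, p = 0.00743, adjusted p = 0.297; rho = 0.62, p = 0.0148, adjusted p = 0.296; with the 2 hearts of most extreme Adra1a omitted, r was 0.55), then Adra1a with the cardiomyocyte markers (r = 0.62, p = 0.0212, adjusted p = 0.423; rho = 0.63, p = 0.0140, adjusted p = 0.296; with the same omission, r was 0.48). On log2 CPM these had an r of 0.39 and 0.10, and none of the 40 passed on either scale.

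**Figure D4:**
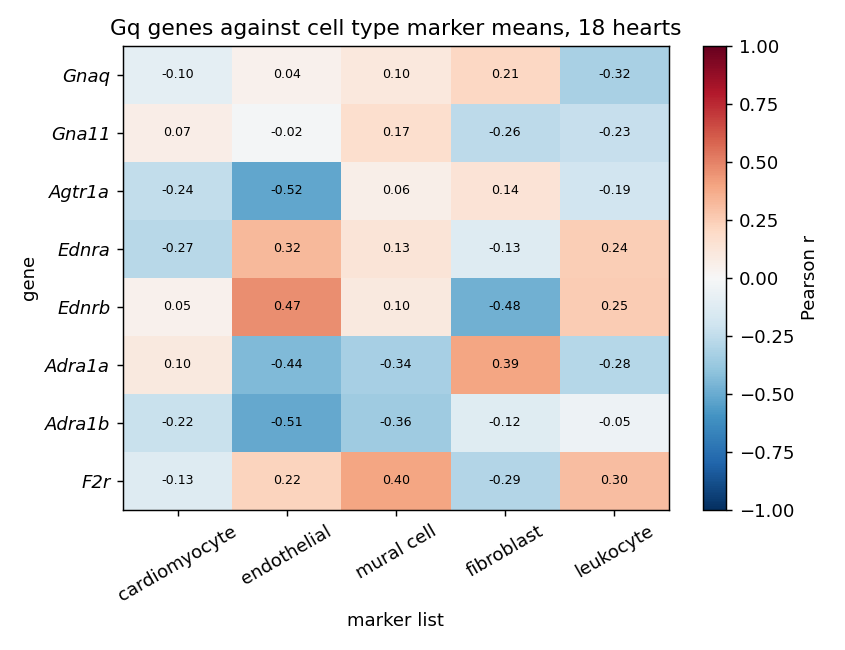
Pearson's r of each gene with the mean log2 CPM of 5 cell type marker lists over 18 hearts, group means subtracted. The strongest value on this scale is that of Agtr1a with the endothelial markers, -0.52, which is -0.08 on log2(FPKM + 0.1), and none of the 40 passed the test.

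Plcb1 varied between the hearts that carried it, which allows its level to be set against those of its activators. None of the 16 relations passed the test. In PLCβ1b hearts the strongest was that with Adra1a (r = 0.88, exact permutation test, p = 0.025, adjusted p = 0.20, rho = 0.83, p = 0.0583, adjusted p = 0.311, n = 6), and in PLCβ1a hearts that with Ednrb (r = -0.88, exact permutation test, p = 0.0292, adjusted p = 0.20, rho = -0.89, p = 0.0333, adjusted p = 0.311, n = 6). Without the 2 hearts farthest from the median of Plcb1 r was 0.76 for the first and -0.21 for the second. The second thus rests in part on those hearts. With 2 of 6 hearts out, such an r is itself uncertain, as is that of the next relation. In PLCβ1b hearts Plcb1 with Ednrb had an r of -0.80 (exact permutation test, p = 0.050, adjusted p = 0.20, rho = -0.83, p = 0.0583, adjusted p = 0.311, n = 6), which was -0.92 without the 2 hearts farthest from the median. On log2(FPKM + 0.1) it was the strongest in that group, with an r of -0.90 beside 0.80 for Adra1a, and did not pass the test there either (exact permutation test, adjusted p = 0.147).

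Among 9068 tested genes with a mean of at least 50 counts, the genes most like each member over the 18 hearts were named by r of group-centred log2 CPM, as a description. For Gnaq they were Ccdc88a (0.81), Magoh (0.81) and Ptpn13 (0.80), and for Gna11 Fam222b (0.78), Zswim6 (0.76) and Atxn10 (0.76). For Agtr1a they were Hbp1 (0.88), Lbh (0.87) and Tcap (0.87). The endothelin receptors had Fastkd1 (0.83), Ccdc6 (0.81) and Cnot7 (0.80) for Ednra, and Pkd2l2 (0.81), App (0.80) and Ccpg1 (0.79) for Ednrb. Pkd2l2 (0.78) was also among those of F2r, with 2700060E02Rik (0.79) and Ddx24 (0.78). Ednrb and F2r thus shared a neighbour, which is no further support for their relation, as it comes from the same hearts. The adrenergic receptors had Psmb4 (0.86), Agxt2l2 (0.84) and Gpd2 (0.79) for Adra1a, and Id3 (0.85), Pcdh7 (0.84) and Leprel4 (0.83) for Adra1b.

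The other Gq-class alpha subunits, Gna14 and Gna15, were near 0, with means of 0.0618 and 0.187 FPKM, and neither of the 2 passed the filter. Among alpha subunits of other classes 7 of 8 were tested and 0 called in each comparison. Gnas, which encodes the subunit that activates adenylyl cyclase, had the highest mean level (163.8 FPKM), ahead of Gna12 (23.5) and Gnai2 (23.1). Gnai2 had the lowest unadjusted p of the list, with a log2 fold change of 0.10 between PLCβ1b and blank hearts (FDR 0.585 in edgeR).

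Of 17 beta and gamma subunits 11 were tested and 0 called. Gng5 (49.1 FPKM), Gnb2 (21.4) and Gng11 (14.9) had the highest mean levels, and Gnb3 the lowest unadjusted p, with a log2 fold change of 0.34 between PLCβ1b and blank hearts (FDR 0.600 in edgeR). Of 51 other Gq-coupled receptors 14 were tested and 0 called. Among the highest were the purinergic receptors P2ry1 (4.60 FPKM) and P2ry2 (3.80). P2ry1 had the lowest unadjusted p, with a log2 fold change of -0.24 between PLCβ1a and blank hearts and -0.19 between PLCβ1b and blank hearts (FDR 0.335 and 0.592 in edgeR), 2 comparisons that share their controls.

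Of 9 ligands and the enzymes that make them 6 were tested and 0 called. The endothelin-converting enzyme Ece1 (8.31 FPKM), the angiotensin-converting enzyme Ace (6.25) and Ece2 (1.51) were the highest, and Ece1 had the lowest unadjusted p, with a log2 fold change of 0.13 between PLCβ1b and blank hearts (FDR 0.632 in edgeR). All 8 receptor kinases, arrestins and chaperone were tested and 0 called. Adrbk1 (7.30 FPKM), which encodes a kinase that desensitises receptors, Grk6 (2.88) and Ric8 (2.68) were the highest, and Grk6 had the lowest unadjusted p, with a log2 fold change of 0.12 between PLCβ1b and PLCβ1a hearts (standard error 0.07).

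Of the 7 effectors of Gq, 1 was called in each comparison, which was Plcb1 itself. Its relatives were not called. Plcb4 had a mean of 8.37 ± 0.729 FPKM (SD) over all hearts and Trio, a guanine nucleotide exchange factor, one of 4.56 ± 0.252. By mean FPKM, Plcb1 stood below both in blank (0.986 ± 0.113) and PLCβ1a hearts (3.86 ± 0.738). In PLCβ1b hearts its mean (8.28 ± 3.38) was above that of Trio (4.61 ± 0.320). It was within its spread of that of Plcb4 (8.70 ± 0.748). The annotated exons of Plcb1 cover 7116 bases, and the length of the vectors' message is not given in the sources used here. The order of Plcb1 beside Plcb4 and Trio in PLC hearts therefore depends on a length that was not known. Between PLCβ1b and blank hearts the log2 fold change of Plcb4 was 0.03 (standard error 0.06).

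The medians of these lists are given beside that of all genes, whose median absolute log2 fold change between PLCβ1b and blank hearts was 0.071. Whether any list is shifted was not tested. Between PLCβ1b and blank hearts, the median log2 fold change was 0.06 for alpha subunits of other classes, -0.02 for beta and gamma subunits, 0.07 for other Gq-coupled receptors, -0.0016 for ligands and their enzymes, 0.0097 for receptor kinases and arrestins and 0.03 for effectors, beside -0.00091 for all genes. At an unadjusted p under 0.05 in edgeR these lists held 1 of 7, 1 of 11, 2 of 14, 1 of 6, 0 of 8 and 1 of 7 tested genes in that comparison, beside 7.43% of all genes. The 1 effector was Plcb1, which the vectors themselves carry, so its entry is no response. The median of the effectors also includes it.

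The markers of the tissue were those of heart muscle. The 6 cardiomyocyte markers summed to 6009 to 7113 FPKM per heart, with Myh6 the most abundant. The mural cell markers summed to 150.7 to 172.9 FPKM, led by Rgs5, and the fibroblast markers to 155.9 to 197.3, led by Dcn. Leukocyte markers summed to 9.91 to 14.9, led by Csf1r, with Cd3e at 0 in some hearts. Mesothelial markers summed to 2.61 to 4.03, led by Upk3b. Atrial markers, led by Nppa, summed to 71.2 to 103.5 FPKM around a median of 85.4 in blank, 45.2 to 120.8 around 90.4 in PLCβ1a and 55.5 to 88.4 around 80.2 in PLCβ1b hearts. Between PLCβ1b and blank hearts 4 of 4 had an estimate below 0 (median log2 fold change -0.36), and between PLCβ1b and PLCβ1a hearts 3 of 4 (median -0.38), 0 being called. The lowest was Sln against PLCβ1a, at -0.89 (unadjusted p = 0.00602, FDR 0.959 in edgeR). The part of atrial tissue in the levels of the members was not tested. Against blank, PLCβ1b hearts had an estimate above 0 for 6 of 6 fibroblast markers (median 0.11) and 4 of 4 leukocyte markers tested. It was also above 0 for 7 of 8 mural cell, 5 of 6 endothelial and 2 of 6 cardiomyocyte markers. For PLCβ1a it was 5 of 6 fibroblast, 4 of 4 leukocyte, 4 of 8 mural cell, 4 of 6 endothelial and 5 of 6 cardiomyocyte markers. Lum had the lowest p of the fibroblast markers for PLCβ1b, at 0.23 (unadjusted p = 0.00228, FDR 0.354 in edgeR). Schwann cell markers (0.486 to 1.14) and adipocyte markers (0.128 to 1.57) were near 0. Erythrocyte markers summed to 641.7 to 1437 FPKM, led by Beta-s, and 3 of their 4 genes had no counts although the FPKM table lists them well above 0. No marker gene was called by edgeR in any comparison. Beta-s, the haemoglobin chain, had a log2 fold change of 0.52 between PLCβ1a and blank hearts (FDR 0.149) and was called with no filter on low counts (FDR 0.0206) and with only the 2 groups compared (FDR 0.0751).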

How the data were processed

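Ribosomal RNA was removed before strand-specific libraries were read in pairs. The authors placed the reads on mm10 with TopHat2 2.0.10, and HTSeq in union mode, with strand, gave the deposited count of each gene, which is not normalized. The deposited FPKM come from a program whose role is not given in the sources used here; the submitters' processing notes also name Cufflinks 2.1. Positions and exon lengths were read from the deposited annotation.

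Counts were tested with edgeR 4.0.16 in R 4.3.3, with TMM scaling, filterByExpr (minimum count 10, minimum total 15) and 1 quasi-likelihood model of the 3 groups under the package's default options. The options were not set in the plan. After the calls of the default fit were seen, and found to differ from an earlier analysis of these data, 8 combinations of edgeR's options were compared. A robust prior gave the earlier analysis's counts. For that reason it was for a time made the setting of the model, and was then replaced by the default again, since neither the plan nor the earlier description names it. The results with other options are given under the dependence on processing. Standard errors and 95% intervals are of Wald form.

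Log2 CPM had a prior count of 2. Ratios of FPKM were compared by exact permutation over 924 arrangements, which cannot give a p below 0.0022, relations by 100000 permutations within groups, and those with Plcb1 by 720 exact pairings. Ratios and relations passed at an adjusted p below 0.1. DESeq2 1.42.0 and limma 3.58.1 (on log2 FPKM with 0.1 or 1 added), other scaling, filters, groups and each heart left out were alternatives. Procedures were tested on simulated data. Python 3.11.15, numpy 2.4.6, pandas 2.3.3 and matplotlib 3.10.9 made tables and figures.

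Named were all members, Plcb1, in each pathway list the 3 genes with the highest FPKM, those called and the one with the lowest p, the 3 genes most like each member, and tissue markers; 1 gene that this rule names is not reported here. Members and lists were chosen with earlier results of these data known.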

Additional observations from a re-analysis of the deposited data

Results flagged for a closer look

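In 4 of 36 sets of 6 hearts, 1 heart stood apart from the rest, its gap to the nearest heart, as a share of the whole range, being above Dixon's 95% critical value. Chance gives about 1 in 20 such sets. In PLCβ1a hearts, heart 21 was the highest for Plcb1 (5.28 FPKM, gap 0.672 of the range) and for the log2 ratio of Ednra to Ednrb (gap 0.756). In PLCβ1b hearts, heart 4 was the highest for Adra1a (5.61 FPKM, gap 0.660) and heart 10 the lowest for F2r (5.54 FPKM, gap 0.712).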

How the results depend on the processing

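No member was called under any alternative run (lowest FDR 0.480). An unadjusted p under 0.05 arose for Agtr1a with only the groups compared (0.0267, PLCβ1b against PLCβ1a), and with 1 heart left out for Agtr1a, Ednrb and Adra1b (lowest 0.0275). edgeR's option settings were compared after the calls of the default fit were seen. Against blank, all genes called went from 12 (7 higher) by default to 12 (9 higher) with the robust prior, 10 (5 higher) without the legacy method and 13 (9 higher) with both for PLCβ1b, and from 10 (6 higher) to 17 (12 higher), 16 (11 higher) and 18 (13 higher) for PLCβ1a; between PLCβ1b and PLCβ1a they went from 1 to 0, 1 and 0. Plcb1's FDR with the robust prior was 8.24e-05, 0.0299 and 0.801 in the 3 comparisons, against 4.63e-10, 1.64e-05 and 0.00918 by default. The count of pathway genes called between PLCβ1b and PLCβ1a, 1 by default, was 0 with the robust prior, with both options and with limma at either pseudocount. DESeq2 called 24, 33 and 1 genes in the 3 comparisons, no filter 26, 32 and 2, only the groups compared 6, 6 and 2, and limma 5, 6 and 0. Against blank, those higher numbered 16 and 16 with DESeq2, 15 and 20 with no filter, 2 and 3 with only the groups compared, and 1 and 1 with limma at either pseudocount, for PLCβ1b and PLCβ1a in turn. Leaving out 1 heart moved the 12 calls for PLCβ1b against blank to between 4 and 17 (4 without blank heart 34 or PLCβ1b heart 4, 6 without PLCβ1b heart 17, 7 without blank heart 33 or PLCβ1b heart 6), and the 10 for PLCβ1a to between 2 and 20 (2 when blank heart 30, blank heart 34, PLCβ1a heart 7 or PLCβ1a heart 11 was omitted, 4 without PLCβ1a heart 14, 6 when it was blank heart 26, blank heart 32 or PLCβ1a heart 9, 16 without blank heart 33, 20 without PLCβ1a heart 13). Between PLCβ1b and PLCβ1a the 1 call became 2 without PLCβ1a heart 14 or PLCβ1b heart 8 or 17. limma on log2 FPKM with 0.1 or 1 added turned the sign of Gnaq (-0.0091 and -0.0066) and Adra1a (-0.0075 and -0.0077) for PLCβ1a against blank, and of Gnaq (0.00068 and 0.00011) and Ednra (0.0069 and 0.0049) for PLCβ1b against PLCβ1a; the cause was not tested. On log2(FPKM + 0.1), 23 of 84 relations changed sign and none of these had passed the test. The relation of Ednrb with F2r kept an r of 0.73 (adjusted p = 0.0734). With group means not subtracted it was 0.76. When single hearts were omitted, the log2 fold change against blank kept its sign for Ednra (-0.14 to -0.036 for PLCβ1b, -0.14 to -0.028 for PLCβ1a), Ednrb (0.026 to 0.14, 0.080 to 0.20), Adra1b (-0.16 to -0.066, 0.0077 to 0.097), F2r (0.012 to 0.091, 0.035 to 0.13) and, for PLCβ1a, Agtr1a (0.067 to 0.25), while these log2 values changed sign within the ranges given. For PLCβ1b against blank, -0.0397 to 0.025 for Gnaq, -0.032 to 0.017 for Gna11, -0.11 to 0.079 for Agtr1a, -0.042 to 0.026 for Adra1a, -0.012 to 0.048 for the ratio of Gnaq to Gna11 and -0.014 to 0.088 for the ratio of Adra1a to Adra1b. For PLCβ1a against blank, -0.021 to 0.052 for Gnaq, -0.043 to 0.0088 for Gna11 and -0.033 to 0.045 for Adra1a. For PLCβ1b against PLCβ1a, -0.055 to 0.016 for Gnaq, -0.016 to 0.035 for Gna11, -0.0303 to 0.051 for Ednra, -0.12 to 0.00054 for Ednrb, -0.054 to 0.026 for Adra1a, -0.085 to 0.011 for F2r and -0.061 to 0.013 for the ratio of Gnaq to Gna11.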
